A study of Mus musculus with 4 samples.

Results

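Normoxic embryoid bodies at day 10 of differentiation were compared with normoxic embryoid bodies at day 8, cell by cell. All barcodes of the 2 normoxic libraries were taken, and cells with at least 500 detected genes and at most 15% of UMIs (unique molecular identifiers, 1 per counted RNA molecule) from mitochondrially encoded genes were kept. This gave 3168 cells at day 8 and 2679 cells at day 10, so 5847 of the 13808 cells kept over the 4 libraries of the series. Both groups were R1 cells, a line of mouse embryonic stem cells, differentiated as embryoid bodies for 8 d or for 10 d in normoxia throughout. No genotype, drug or other treatment is given for either group, and the labels do not say how many bodies, plates or clones were pooled. No source used here gives the oxygen level, and the hypoxic libraries of the series enter no comparison.

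Each age was represented by 1 library. No difference below has a replicate check, no p-value was computed, and age cannot be told apart from anything else that differed between the libraries. Intervals in the text are 95% intervals for counting error only.

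Embryoid bodies are aggregates of embryonic stem cells that leave pluripotency and form derivatives of the germ layers without the body plan of an embryo. In such cultures mesoderm gives blood, heart, endothelial and mesenchymal cells. Primitive erythroid cells, which carry embryonic globins, and yolk sac type macrophages belong to the early waves of blood formation, and visceral or gut-type endoderm secretes carrier proteins such as transthyretin and apolipoproteins. Mesenchymal cells lay down collagens and proteoglycans as they mature.

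The kept cells held 84938732 UMIs at day 8 and 62614780 at day 10, with medians of 23057.5 and 20332 UMIs and 5395 and 4888 genes per cell. Mitochondrially encoded genes took 3.82% and 4.05% of UMIs, and ribosomal protein genes 19.1% and 21.4%. Malat1, a nuclear long noncoding RNA that is often read beside RNA quality, stood at 9873 CPM (UMIs per 1000000 UMIs of the library's kept cells) at day 8 and 16054 at day 10, and its part in the results below was not tested. The libraries shared 1 cell barcode. The labels call the cells mESC, and the markers went against that name at these ages: Pou5f1 was seen in 0.904% of day 8 cells and 0.914% of day 10 cells, and Nanog in 0.646% and 0.397%, after each cell was thinned to 5000 UMIs (3.88%, 4.67%, 2.21% and 0.859% unthinned). In macrophage-like cells, which should lack both genes, 0 of 52 and 0.595% of 168 thinned cells had a Pou5f1 UMI. Thinning left 3098 and 2517 cells, with 70 and 162 shallower cells left out. None of 15 primitive streak genes reached a mean of 5 CPM.

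Cells of both libraries were clustered together and named from marker lists. Mesenchymal-like cells, carrying fibroblast, epicardial or smooth muscle markers, were the great majority at both ages, with 2474 cells at day 8 (78.1%, interval 76.6% to 79.5%) and 2389 at day 10 (89.2%, 87.9% to 90.3%). A shallow cluster with a median of 2890 UMIs supplied 32 and 95 of these cells. The share depended on the clustering resolution, which was 1 here. At resolution 0.5 mesenchymal-like cells were 83.8% (82.5% to 85.1%) and 85.4% (84.0% to 86.7%), and these intervals overlapped. At resolution 2 they were 84.8% and 89.2%. Macrophage-like cells were 52 at day 8 (1.64%, 1.23% to 2.15%) and 192 at day 10 (7.17%, 6.22% to 8.21%). The other named classes had lower shares at day 10, and for the endothelial-like cells this rested on few cells. Erythroid-like cells went from 143 (4.51%) to 22 (0.821%) together with megakaryocyte-like cells of the same cluster. Endoderm-like cells went from 241 (7.61%) to 65 (2.43%).

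A finer clustering separated the blended groups. Its use to keep yolk sac and gut endoderm apart and to name cardiomyocyte-like, megakaryocyte-like and pluripotent-like cells was chosen after seeing the data. In it, cells with yolk sac endoderm markers were 132 at day 8 (4.17%, 3.50% to 4.92%) and 6 at day 10 (0.224%, 0.0822% to 0.487%). Cells with gut endoderm markers were 95 (2.999%, 2.43% to 3.65%) and 56 (2.09%, 1.58% to 2.71%), and these intervals overlapped. Erythroid-like cells were 110 and 11, megakaryocyte-like cells 34 and 11, endothelial-like cells 17 and 2, and pluripotent-like cells 14 and 3. Counted instead as cells with at least 3 endothelial markers after thinning, they were 64 at day 8 (2.07%, 1.59% to 2.63%) and 38 at day 10 (1.51%, 1.07% to 2.07%), and these intervals overlapped. Cardiomyocyte-like cells were 28 (0.884%, 0.588% to 1.27%) and 9 (0.336%, 0.154% to 0.637%). At the coarser clustering the cluster with cardiac markers took 248 and 10 cells, but at day 8 its cells held a median of 1 UMI from the cardiac marker genes, so most of them were not cardiomyocyte-like and that cluster is not used. Its cells are not counted in the mesenchymal-like shares of 78.1% and 89.2%.

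**Figure D1:**
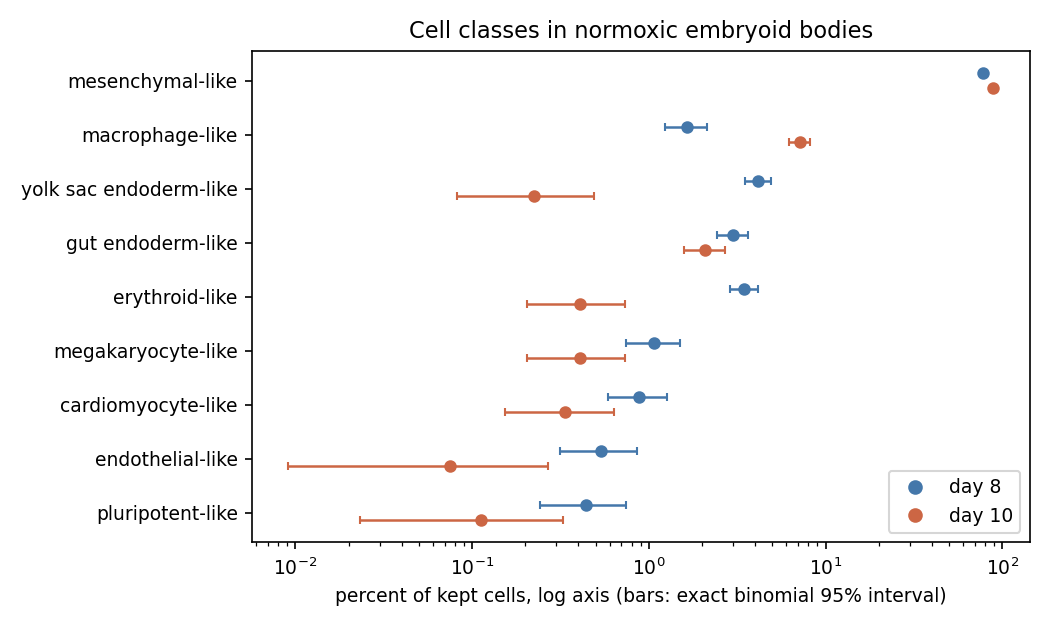
Percent of kept cells in each class on a log axis, at day 8 (blue) and day 10 (red), with exact binomial 95% intervals. Mesenchymal-like and macrophage-like shares come from the main clustering, and the rest from the finer one. At the finer one the mesenchymal-like shares were 84.8% and 89.2%. Macrophage-like cells sit at 1.64% and 7.17%, and yolk sac endoderm-like cells at 4.17% and 0.224%.

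Gene levels were compared as UMIs summed over all kept cells of a library and scaled to CPM. A log2 ratio is that of CPM + 1, day 10 over day 8. The mean over the 2 libraries reached 20 CPM for 6937 genes. At day 10, 199 of them (2.87%) were higher by 2-fold or more and 119 (1.72%) were lower by as much. Of the genes past 2-fold, 62.6% were higher, and this share was 73.7% with TMM scaling and 70.5% after centring on the median gene. The median log2 ratio of the 6937 genes was -0.08. Since summed UMIs mix the number of cells of a type with the RNA in each, fewer cells and less RNA per cell cannot be told apart from these sums alone. Values within classes are given beside them for some genes and lists, and the other lists are described over all cells only.

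The 15 highest ratios held macrophage genes and matrix genes. Spp1, the secreted matrix protein osteopontin, stood at 2.25 CPM (1.94 to 2.59) at day 8 and 57.6 CPM (55.8 to 59.5) at day 10, a log2 ratio of 4.17. At day 10, 1 cell held 62.3% of the Spp1 UMIs and 5 cells held 86.8%, so this ratio describes a few cells. F13a1, the coagulation factor XIII A chain made by macrophages, stood at 6.57 and 92.7 CPM. Mrc1, the macrophage mannose receptor, stood at 6.55 and 74.0 CPM. The complement genes C1qc (2.96 and 45.0 CPM) and C1qb (8.57 and 76.7 CPM) and the myeloid signalling adaptor Tyrobp (24.0 and 126 CPM) were also among them. The matrix members were Ogn, the proteoglycan osteoglycin, at 8.90 and 71.2 CPM, and Lox, the enzyme that crosslinks collagen, at 13.4 and 93.4 CPM. The rest were Angptl7 (10.9 and 73.4 CPM), Cdh13 (16.2 and 106 CPM), Brinp1 (19.5 and 122 CPM), Ppp2r2b (34.1 and 191 CPM), S100a4 (9.80 and 57.5 CPM), Fosb (16.1 and 84.1 CPM) and Rbfox1 (30.5 and 151 CPM).

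The 15 lowest ratios held globins, endodermal products and heart genes. Nepn, a small leucine-rich proteoglycan gene, stood at 51.7 CPM (50.2 to 53.3) at day 8 and 2.64 CPM (2.25 to 3.07) at day 10, a log2 ratio of -3.86. The endodermal carrier genes Ttr, for transthyretin, and Rbp4, for plasma retinol binding protein, stood at 240 and 21.9 CPM and at 405 and 62.4 CPM. Apom, the apolipoprotein M gene, stood at 36.8 and 3.27 CPM, the protease inhibitor gene Spink1 at 231 and 20.9 CPM, and Pyy, for the gut hormone peptide YY, at 40.5 and 2.89 CPM. The heart genes were Myl7, the atrial myosin light chain, at 60.9 and 9.34 CPM, and Actc1, cardiac actin, at 44.9 and 7.20 CPM. Embryonic globins Hbb-bh1, Hba-x and Hbb-y are described below. Pf4, the platelet factor 4 gene, stood at 87.0 and 18.0 CPM, and the remaining genes were Emb, Mt2 and B3gnt5. At day 10 a single cell held 62.5% of the Spink1 UMIs, 57.5% of those of Pyy and 42.4% of those of Ttr.

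**Figure D2:**
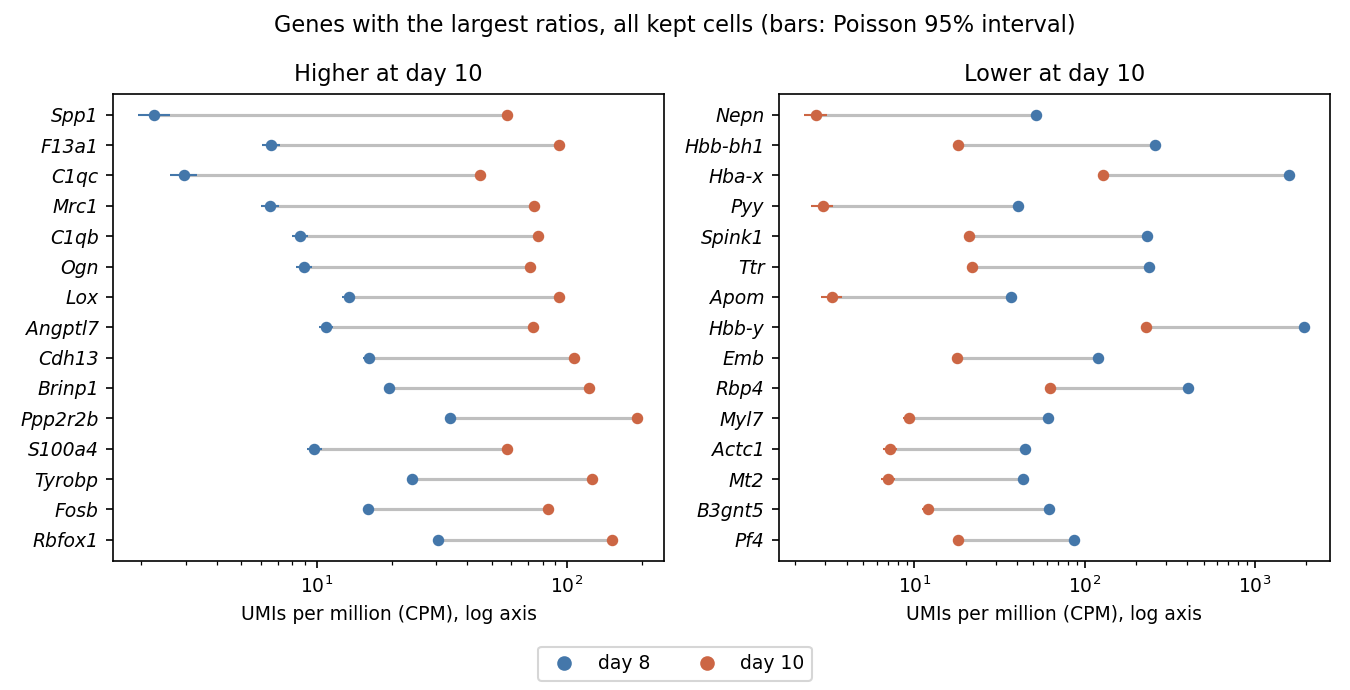
The 15 genes with the highest (left) and the lowest (right) log2 ratios of the 6937 genes whose mean reached 20 CPM, with each gene's CPM at day 8 (blue) and day 10 (red) on a log axis and Poisson 95% intervals. Spp1 heads the left panel with 2.25 and 57.6 CPM, and Nepn heads the right panel with 51.7 and 2.64 CPM.

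Mesenchymal-like cells carried 79.9% of the UMIs at day 8 and 90.2% at day 10, and most of the 2-fold differences were seen within them as well. Of the 199 genes that were 2-fold higher, 166 (83.4%) were also 2-fold higher in mesenchymal-like cells alone. Of the 119 that were 2-fold lower, 91 (76.5%) were also 2-fold lower there, and 0 genes were 2-fold different the other way. No minimum level in mesenchymal-like cells was set for these counts. The 91 hold the globins Hba-x, Hbb-y and Hbb-bh1, whose UMIs in these cells are read as background below. They also hold genes at low levels there, such as Spink1 (3.28 and 0.248 CPM). How many of the 91 rest on background was not tested. Within the class, 183 of 6828 genes (2.68%) were at least 2-fold higher and 101 (1.48%) at least 2-fold lower. These counts share cells with those of all cells and are no separate evidence. Genes of the minor classes left the diagonal: Mrc1 stood at 0.295 and 0.372 CPM in mesenchymal-like cells, and Spp1 at 1.62 and 1.31 CPM. Ttr stood at 2.92 and 0.283 CPM there and was lower at day 10 in both sets of cells. Its log2 ratio was -1.61 there and -3.40 in all cells, but the added 1 CPM shrinks a ratio at levels this low. Myl7 stood at 2.39 and 5.30 CPM in mesenchymal-like cells, the opposite order to that in all cells.

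**Figure D3:**
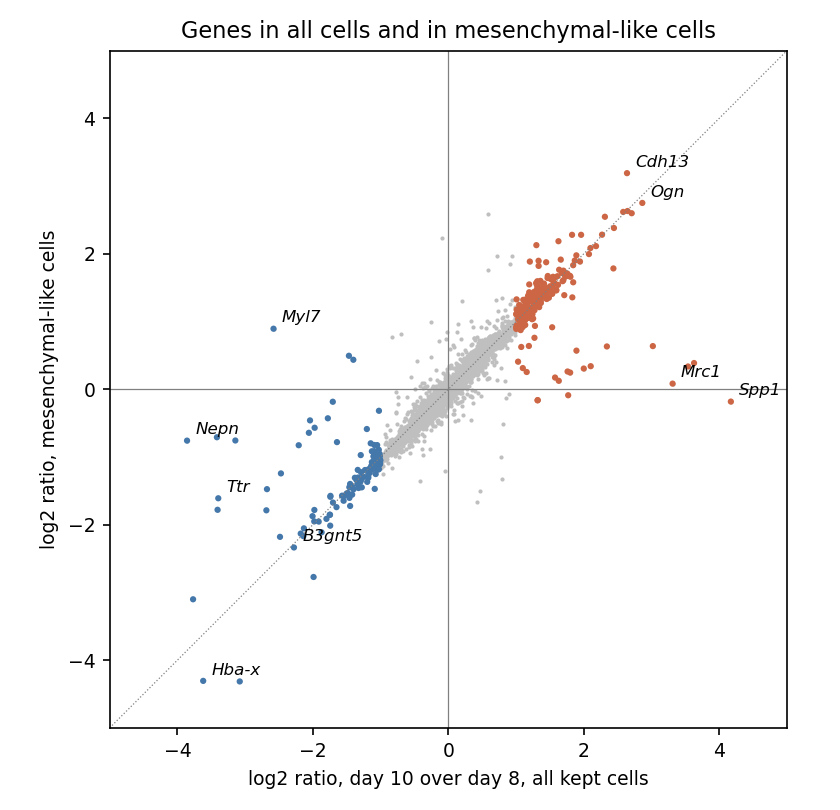
Log2 ratio of CPM + 1, day 10 over day 8, in all kept cells (x axis) and in mesenchymal-like cells (y axis), for genes whose mean reached 20 CPM. Red and blue dots are the 199 genes at least 2-fold higher and the 119 at least 2-fold lower in all cells. Cdh13 lies near the diagonal and Spp1, Mrc1 and Ttr lie away from it. For Ttr this reflects the 1 CPM added to low levels in mesenchymal-like cells (2.92 and 0.283 CPM). Whether its UMIs in these cells are background was not tested.

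Within mesenchymal-like cells the highest ratios belonged to Cdh13, T-cadherin (11.6 and 114 CPM), Ogn (10.8 and 78.2 CPM), Angptl7 (12.1 and 80.4 CPM), Brinp1 (21.0 and 134 CPM), Lox (16.0 and 102 CPM) and Fosb (13.3 and 82.7 CPM). The lowest belonged to the glycosyltransferase gene B3gnt5 (66.9 and 12.4 CPM), the teneurin adhesion gene Tenm2 (150 and 32.5 CPM), Tdo2, for a tryptophan-degrading enzyme (41.9 and 8.78 CPM), Ankrd1, a stretch-responsive gene (65.3 and 14.3 CPM), Cobll1 (80.1 and 18.5 CPM) and Asns, asparagine synthetase (37.6 and 8.55 CPM). No single cell held more than 5% of the UMIs of any of these 12 genes at either age, except Tenm2 (8.88% in 1 cell at day 10) and Ankrd1 (6.02% at day 8 and 24.8% at day 10). After thinning, Lox was seen in 6.63% of mesenchymal-like cells at day 8 and 29.3% at day 10 (21.7% and 59.5% unthinned), against 0 of 52 and 2.38% of macrophage-like cells. Median depths were 23650 and 20542 UMIs in mesenchymal-like cells and 37777 and 20400 in macrophage-like cells. The mesenchymal-like cells fell into 15 clusters, of which 6 drew at least 80% of their cells from day 8 and 8 at least 80% from day 10, so 97.4% of the cells sat in a cluster of mostly 1 library. Such clusters may mark the library and not a cell type, and they are not compared by number.

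Gene lists were read as the number of members at least 1.5-fold higher or lower, among members whose mean reached 5 CPM, which are called measured. Of all 10871 genes at that level, 899 (8.27%) were higher, 883 (8.12%) were lower, and the median log2 ratio was -0.08. In mesenchymal-like cells the same figures were 8.34%, 8.79% and -0.09 over 10632 genes.

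**Figure D4:**
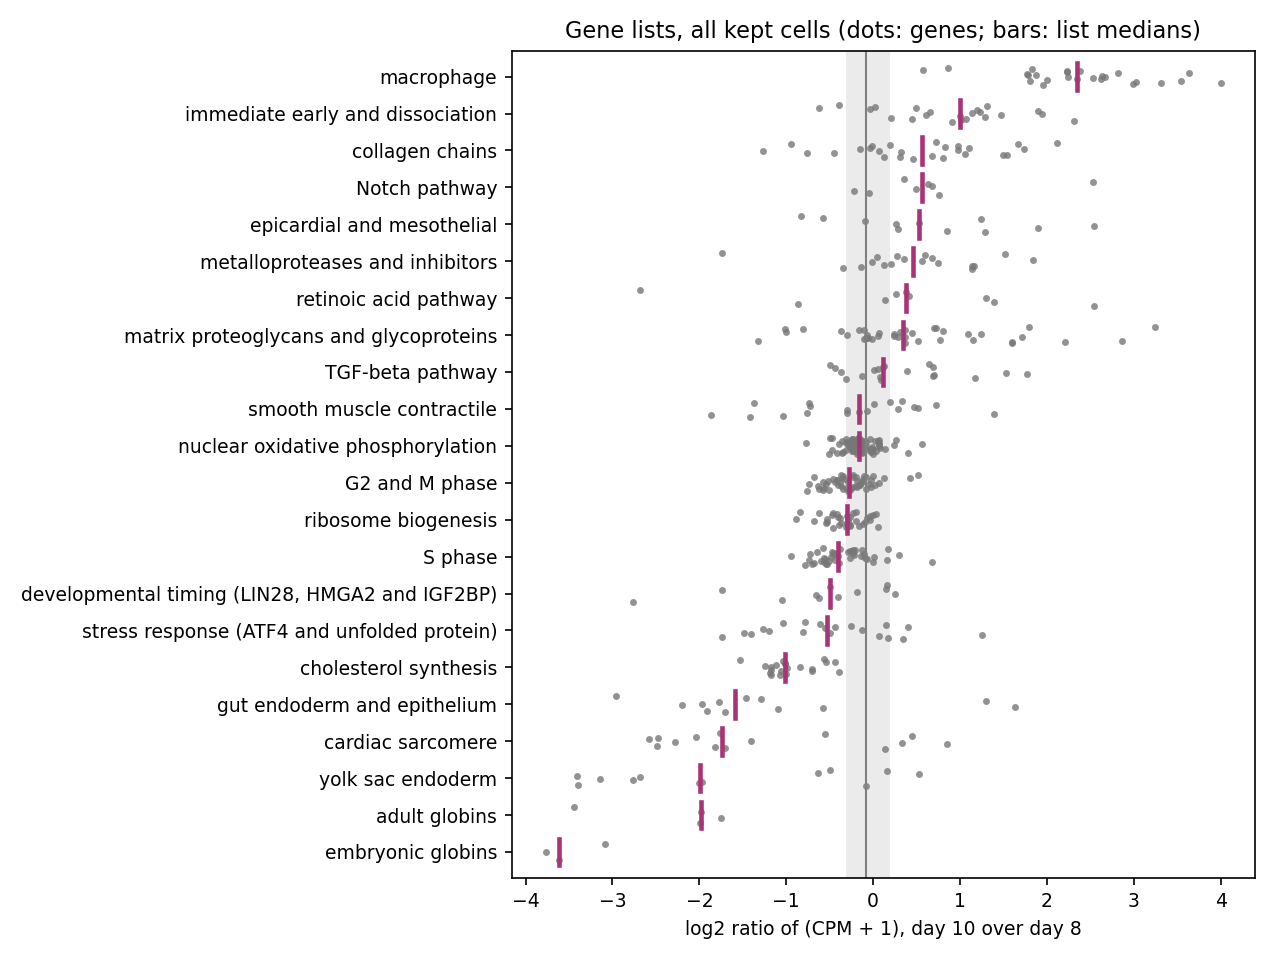
Log2 ratio of CPM + 1, day 10 over day 8, in all kept cells, for the measured members of 22 gene lists (dots), with the median of each list (bar). The vertical line is the median of all genes whose mean reached 5 CPM (-0.08), and the grey band holds the middle 50% of them. The macrophage list lies highest, with a median of 2.34, and the embryonic globins lowest, with -3.62.

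Genes of cholesterol synthesis were lower at day 10 as a group. All 21 genes of the list were measured, all 21 had a ratio below 0 (6347 of 10871 genes did), 17 were at least 1.5-fold lower and 0 were 1.5-fold higher. The median log2 ratio was -1.01. Hmgcs1, which makes the HMG-CoA that the pathway starts from, stood at 219 CPM (216 to 223) at day 8 and 96.9 CPM (94.4 to 99.3) at day 10. Sqle, the squalene epoxidase, stood at 71.0 and 35.2 CPM. Fdps, which makes farnesyl diphosphate, stood at 257 and 113 CPM, the mevalonate kinase gene Mvk at 41.7 and 17.8 CPM, and the lanosterol synthase gene Lss at 31.2 and 13.2 CPM. Of the later sterol steps, the sterol reductase gene Tm7sf2 stood at 17.2 and 6.69 CPM, a log2 ratio of -1.24. The smallest difference was that of Pmvk, at 79.1 and 60.1 CPM.

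The lower level was seen in more than 1 class. Of all genes measured in a class, 18.9% were 1.5-fold higher in macrophage-like, 9.82% in endoderm-like and 10.5% in erythroid-like cells, where 0 members of the list were higher. The summed level of the list was 1767 CPM at day 8 and 872 CPM at day 10 in mesenchymal-like cells, where 19 of 21 members were at least 1.5-fold lower (median log2 ratio -1.06). In macrophage-like cells it was 1631 and 702 CPM, with 18 of 21 members lower, where 21% of all 9152 measured genes were lower too. In endoderm-like cells it was 1232 and 1179 CPM, and 2 of 21 members were lower, beside 12.8% of 10384 genes. The median log2 ratio there was -0.05, and that of all genes in the class -0.04. In the erythroid-like cluster 17 of 19 measured members were lower, but so were 52.5% of all 5773 genes, at median depths of 17507 and 7996 UMIs. Fdps was seen in 56.9% of thinned mesenchymal-like cells at day 8 and 30.2% at day 10 (85.7% and 54.7% unthinned). Depth, age and library cannot be told apart in these values.

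Promoters of this pathway are shown because its members moved together. Sterol-responsive genes are known for binding sites of SREBP, which recognises sterol elements, beside CCAAT boxes bound by NF-Y. RefSeq promoters (GRCm38.p6, the 250 bases before a gene's start) were at hand for 15 of the 21 genes, and those of Hmgcs1 and of the 3 genes with the largest differences among them are printed. These stretches lie at chr13:119690101-119690350 on the plus strand (Hmgcs1), chr5:114444019-114444268 on the plus strand (Mvk), chr10:76531355-76531604 on the plus strand (Lss) and chr19:6067851-6068100 on the minus strand (Tm7sf2). Capitals mark CCAAT, or ATTGG where the box lies on the other strand, and TCACCCCAC in Hmgcs1, a match to the sterol element searched as TCACNCCAC.
Hmgcs1: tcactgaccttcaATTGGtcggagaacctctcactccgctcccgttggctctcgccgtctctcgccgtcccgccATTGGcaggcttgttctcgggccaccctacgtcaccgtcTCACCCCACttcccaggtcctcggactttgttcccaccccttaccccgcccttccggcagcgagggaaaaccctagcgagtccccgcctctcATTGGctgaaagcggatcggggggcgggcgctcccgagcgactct
Mvk: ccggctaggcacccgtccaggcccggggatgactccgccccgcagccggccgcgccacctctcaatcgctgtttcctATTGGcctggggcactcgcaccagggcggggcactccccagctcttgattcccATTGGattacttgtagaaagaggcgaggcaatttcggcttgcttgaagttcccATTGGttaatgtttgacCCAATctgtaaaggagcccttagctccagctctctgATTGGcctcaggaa
Lss: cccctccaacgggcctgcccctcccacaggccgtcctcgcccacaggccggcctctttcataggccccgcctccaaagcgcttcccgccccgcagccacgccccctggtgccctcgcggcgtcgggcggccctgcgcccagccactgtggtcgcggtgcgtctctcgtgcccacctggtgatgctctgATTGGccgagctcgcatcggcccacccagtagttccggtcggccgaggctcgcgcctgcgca
Tm7sf2: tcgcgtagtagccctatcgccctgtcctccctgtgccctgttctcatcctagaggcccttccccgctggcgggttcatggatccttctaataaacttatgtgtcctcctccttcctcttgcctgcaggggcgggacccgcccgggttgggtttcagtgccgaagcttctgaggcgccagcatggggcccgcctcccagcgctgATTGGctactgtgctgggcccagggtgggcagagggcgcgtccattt
Read on both strands, CCAAT was found in a promoter of 14 of the 15 genes (93.3%), against 37.5% of 27025 genes with a promoter of this length in the table. The sterol element was found in 1 of the 15, against 1.22% of all genes. These backgrounds were not limited to genes measured here, while the 15 were all measured, so the shares are not of like sets. In Hmgcs1 the sterol element lies 137 to 129 bases before the start and the nearest CCAAT box 45 to 41 bases before it. These matches describe letters and were not linked to the levels by any test.

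Of the 11 listed genes of early developmental time, 5 were lower at day 10. LIN28 proteins are RNA-binding proteins of early embryonic cells that block the maturation of let-7 miRNAs, and let-7 in turn represses messages for LIN28, HMGA2, TRIM71 and IGF2BP1 through sites in their 3′ UTRs. All members of this list were measured, the 5 were at least 1.5-fold lower, 0 were higher by that fold, and the median log2 ratio was -0.50. Lin28a stood at 17.8 CPM (16.9 to 18.7) at day 8 and 1.76 CPM (1.44 to 2.12) at day 10. Trim71, a ubiquitin ligase gene, stood at 52.0 and 14.9 CPM, and Lin28b at 14.7 and 6.61 CPM. Hmga2, a chromatin architectural gene of fetal cells, stood at 523 and 338 CPM, and Igf2bp1, for an mRNA-binding protein, at 158 and 99.7 CPM. Igf2bp2 stood at 146 and 175 CPM and was 1 of 3 members with a ratio above 0, with Dis3l2 (54.4 and 60.3 CPM) and Mycn (11.8 and 13.3 CPM). Lin28a was seen in 6.62% of thinned cells at day 8 and 0.636% at day 10 (22.0% and 2.76% unthinned), against 0 of 52 and 0 of 168 macrophage-like cells, whose exact upper limits are 6.85% and 2.17%. Lin28b was more frequent in thinned macrophage-like cells (36.5% and 25.0%) than in mesenchymal-like ones (4.91% and 0.922%). Unthinned, these were 88.5% and 55.2%, and 17.3% and 4.02%. In mesenchymal-like cells alone 6 of 11 members were lower, Arid3a with the 5, and 0 higher (median -0.64).

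**Figure D5:**
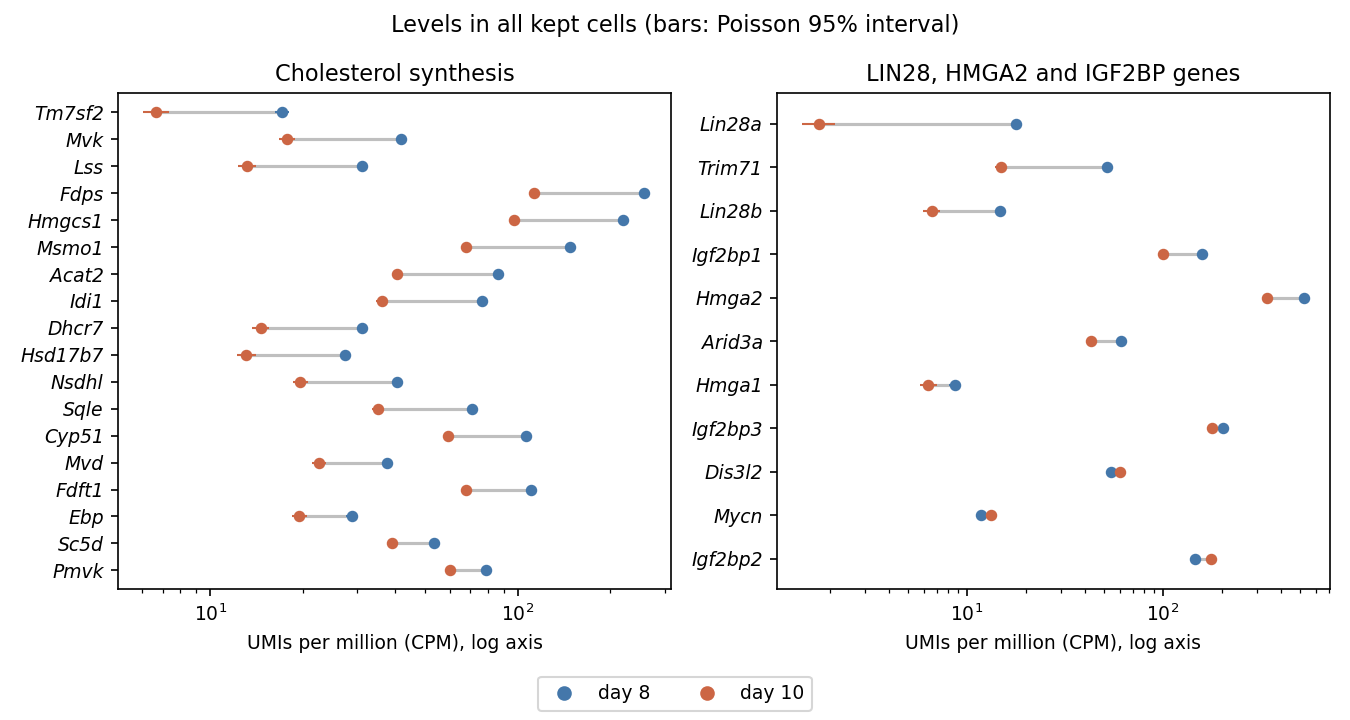
CPM in all kept cells at day 8 (blue) and day 10 (red) on a log axis with Poisson 95% intervals, for 18 of the 21 cholesterol synthesis genes (left) and the LIN28, HMGA2 and IGF2BP list (right). All genes on the left were lower at day 10, with Tm7sf2 at 17.2 and 6.69 CPM, and Lin28a heads the right panel with 17.8 and 1.76 CPM.

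The let-7 family is shown because 5 of its textbook targets are the 5 genes of this list that were lower over all cells. Mature miRNAs carry no poly-A tail and were not measured in these libraries. All 9 mature let-7 and miR-98 sequences matched in RefSeq (GRCm38.p6) share 1 seed, bases 2 to 8, printed in capitals.
let-7a-5p: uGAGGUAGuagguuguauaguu
let-7d-5p: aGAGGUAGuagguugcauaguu
let-7e-5p: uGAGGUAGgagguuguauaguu
miR-98-5p: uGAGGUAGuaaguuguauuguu
The reverse complement of the seed, CTACCTC, was searched on the message strand of the longest annotated 3′ UTR of each gene (GENCODE M21, mm10). The list was made of genes known in connection with LIN28 and let-7, so more matches than in other genes follow from that choice and support nothing here. The match was found in 9 of the 11 list members, against 10.8% of 10481 measured genes with a 3′ UTR. At least 3 matches were found in Lin28b, Hmga2, Igf2bp1 and Trim71, with 4 each, against 0.210% of those genes. UTRs of the list ran from 350 to 6337 bases, and the median over the measured genes was 1252 bases, so length differed as well. The sites below are the first in the UTR for each of the 5 lower genes, with the match in capitals at chr4:134005190-134005196 (Lin28a), chr10:45381023-45381029 (Lin28b), chr9:114512473-114512479 (Trim71), chr10:120364225-120364231 (Hmga2) and chr11:95961779-95961785 (Igf2bp1), all on the minus strand of mm10.
Lin28a: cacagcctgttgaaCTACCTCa
Lin28b: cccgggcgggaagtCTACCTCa
Trim71: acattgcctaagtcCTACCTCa
Hmga2: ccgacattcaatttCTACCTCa
Igf2bp1: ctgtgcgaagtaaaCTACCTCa
Members with matches were not all lower: Igf2bp2 and Igf2bp3, with 1 match each, had log2 ratios of 0.26 and -0.18.

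The extracellular matrix genes were higher in number at day 10, with exceptions in each group. Of 26 measured collagen chains, 13 passed 1.5-fold upwards and 3 downwards. Their median log2 ratio was 0.57. The type VI chains Col6a1 and Col6a2, which form the beaded filaments around cells, stood at 38.2 and 110 CPM and at 16.3 and 49.4 CPM. Col25a1 stood at 6.02 and 29.4 CPM and Col9a2, a chain of the fibril-associated type IX collagen, at 18.1 and 62.8 CPM. Col1a1, the main chain of fibrillar type I collagen, differed less, at 2017 and 2762 CPM. The 3 lower chains were Col8a1 (14.96 and 5.61 CPM), Col23a1 and the basement membrane chain Col4a1 (203 and 120 CPM).

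Of 38 measured proteoglycan and glycoprotein genes, 14 were higher and 4 lower, with a median of 0.34. Mgp, the calcification inhibitor matrix Gla protein, stood at 1.53 CPM (1.28 to 1.82) at day 8 and 22.9 CPM (21.8 to 24.2) at day 10. The small leucine-rich proteoglycan genes Dcn (decorin) and Bgn (biglycan) stood at 224 and 679 CPM and at 2.71 and 16.2 CPM. Lum (lumican) differed less, at 385 and 496 CPM. Igfbp7 stood at 27.1 and 96.8 CPM. Postn, the fibroblast matrix gene periostin, went the other way, at 1108 and 441 CPM. Within mesenchymal-like cells the counts were 13 higher and 3 lower of 27 collagen chains and 14 higher and 4 lower of 38 in the second list. After thinning, Dcn was seen in 56.5% and 79.5% of mesenchymal-like cells (84.6% and 90.2% unthinned), and in 1.92% and 5.36% of macrophage-like cells.

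Matrix-processing genes were mixed. Of 21 measured collagen-processing enzymes 3 were higher, namely Lox, the procollagen protease Adamts3 (11.1 and 30.2 CPM) and the protease enhancer Pcolce (124 and 211 CPM), and 0 were lower. Of 18 measured metalloproteases and inhibitors 8 were higher and 1 lower. Mmp2, a gelatinase, stood at 78.0 and 173 CPM, Mmp16 at 64.3 and 145 CPM, and Adamts17 at 27.9 and 81.7 CPM. The lower gene was Adamts18, at 10.8 and 2.52 CPM.

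Contractile genes were partly lower. Of 19 measured smooth muscle genes 2 were higher and 7 lower, with a median of -0.16. Acta2, smooth muscle actin, stood at 2841 CPM (2830 to 2852) at day 8 and 1062 CPM (1054 to 1070) at day 10, Tagln (transgelin) at 1179 and 572 CPM, and the calponin gene Cnn1 at 12.2 and 2.62 CPM. Mylk, the myosin light chain kinase, stood at 7.76 and 22.0 CPM. Acta2 was seen in 96.2% of thinned mesenchymal-like cells at day 8 and 65.3% at day 10 (98.9% and 81.8% unthinned), and in 9.62% and 11.3% of macrophage-like cells. Of 14 measured cardiac sarcomere genes 9 were lower and 1 higher. Tnnc1, cardiac troponin C, stood at 32.7 and 5.08 CPM, and the myosin light chain gene Myl3 at 23.2 and 3.96 CPM. Tnnt2, troponin T, stood at 64.3 and 70.8 CPM in all cells and at 36.6 and 72.4 CPM in mesenchymal-like cells, so its level did not follow the cardiomyocyte-like share. Among 7 sarcomere genes measured in mesenchymal-like cells 3 were higher and 2 lower. At day 10 a single cell held 49.0% of the Actc1 UMIs and 21.0% of the Myl7 UMIs.

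Epicardial and mesothelial genes were higher for 5 of 11 measured members and lower for 1. Aldh1a2, the enzyme that makes retinoic acid, stood at 2.17 CPM (1.86 to 2.50) at day 8 and 17.5 CPM (16.4 to 18.5) at day 10. Wt1, the transcription factor of the mesothelium, stood at 52.0 and 128 CPM, and Muc16 at 6.39 and 26.6 CPM. Retinoic acid genes were mixed, with 3 of 9 measured members higher and 2 lower (median 0.38). The higher ones were Aldh1a2, the receptor Rarb (36.3 and 90.9 CPM) and the retinaldehyde reductase Dhrs3 (9.22 and 25.9 CPM). The lower ones were Rbp4, with a log2 ratio of -2.68, and Rdh10. Of 25 measured lateral mesoderm factors 2 were higher and 4 lower, where 8.27% of all genes were higher and 8.12% lower. Those with the largest ratios were Msx1 (24.0 and 10.0 CPM), Msx2 (12.7 and 4.93 CPM), Twist1 (18.4 and 8.96 CPM), Ebf1 (5.92 and 13.6 CPM) and Tbx5 (5.85 and 11.3 CPM). Of 15 measured Hox genes 3 were higher and 2 lower: Hoxc4 (7.25 and 14.8 CPM), Hoxc6 (12.7 and 20.7 CPM), Hoxc10 (5.404 and 11.2 CPM), Hoxb2 (39.5 and 19.6 CPM) and Hoxb8 (6.84 and 4.18 CPM).

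Of 19 measured TGF-beta pathway genes 7 were higher and 0 lower, among them the latent binding protein genes Ltbp3 (3.90 and 15.7 CPM) and Ltbp4 (6.53 and 20.7 CPM) and the ligand Tgfb3 (13.6 and 32.0 CPM). For Notch 4 of 8 were higher and 0 lower, with the target gene Heyl at 1.30 CPM (1.06 to 1.56) and 12.3 CPM (11.4 to 13.2) and Hes1 at 180 and 288 CPM. For BMP 2 of 18 were higher and 3 lower. The ligand Bmp5 stood at 27.3 and 4.81 CPM, while the target genes Id1 and Id3 stood at 64.8 and 125 CPM and at 68.5 and 130 CPM. For WNT 3 of 20 were higher and 3 lower: Wnt5a stood at 30.9 and 7.15 CPM, its close relative Wnt5b at 10.7 and 37.2 CPM, and the secreted inhibitor gene Sfrp2 at 11.2 and 39.5 CPM. For Hedgehog 1 of 9 was higher and 2 lower, with a median of 0.01. The higher gene was Gas1, with a log2 ratio of 1.16. The receptor and target gene Ptch1 stood at 78.6 and 35.4 CPM and the binding protein gene Hhip at 9.64 and 3.64 CPM. The binding protein gene Igfbp3 stood at 69.0 and 179 CPM. Of 26 measured imprinted genes 1 was higher and 5 lower, with Phlda2, a placental growth restrictor, at 33.7 and 7.65 CPM and Mest at 478 and 256 CPM. Igf2 and H19, neighbours in 1 imprinted domain, stood at 1232 and 1439 CPM and at 352 and 283 CPM.

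The list of immediate early and dissociation genes was higher at day 10 for 15 of 22 measured members and lower for 1, with a median of 1.00. The lower gene was Hsp90aa1, 1 of the heat shock genes that the list also holds. Immediate early genes are those that cells switch on within minutes of growth factor or stress signals, and enzymatic dissociation is known to induce them. Fosb stood at 16.1 and 84.1 CPM, Nr4a1 at 30.2 and 115 CPM, Ier3 at 17.7 and 70.9 CPM, Egr1 at 293 and 719 CPM and Btg2 at 102 and 255 CPM. In mesenchymal-like cells alone 16 of 22 were higher and 1 lower. Both libraries were dissociated with the same enzyme mix per the labels, and a part of dissociation in this difference was not tested.

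Biosynthetic and stress genes were lower for some members. Of 20 measured ATF4 and unfolded protein response genes 9 were lower and 1 higher, with a median of -0.53. Asns stood at 40.4 and 11.4 CPM, Psat1, of serine synthesis, at 39.4 and 13.4 CPM, and the amino acid transporter gene Slc7a5 at 16.2 and 6.15 CPM. The higher gene was Nupr1, at 24.3 and 59.4 CPM. Of 35 ribosome biogenesis genes 33 had a ratio below 0 but only 4 were 1.5-fold lower, with a median of -0.30. In the S phase list 8 of 42 genes passed 1.5-fold downwards and 1 upwards (median -0.40). In the list for G2 and mitosis 5 of 52 did so downwards and 0 upwards (median -0.28). Over all 10871 genes 8.12% were lower by that fold. The shares of lower genes for ribosome biogenesis and for G2 and mitosis were near this over all cells. Even so, 47 of the 52 genes for G2 and mitosis had a ratio below 0, as did 6347 of all 10871 genes. In mesenchymal-like cells 11 of the 52 were 1.5-fold lower and 0 higher (median -0.37), beside 8.79% of all genes there. For S phase 11 of 42 were lower and 1 higher in these cells. Cyclin gene Ccne2 stood at 14.1 and 6.88 CPM, and Mki67, a marker of cycling cells, at 131 and 129 CPM. Fewer cells held Mki67 at day 10 all the same. It was seen in 28.02% of thinned cells at day 8 and 20.42% at day 10 (44.3% and 27.6% unthinned). In thinned mesenchymal-like cells these shares were 30.4% and 19.98% (47.4% and 26.9% unthinned). Of 75 nuclear oxidative phosphorylation genes 1 was lower and 0 higher. Of 23 glycolysis genes 1 was higher and 3 lower, with the glucose transporter genes Slc2a1 at 344 and 190 CPM and Slc2a3 at 111 and 47.4 CPM. Vegfa stood at 21.1 and 37.3 CPM. Among 10 measured interferon response genes 4 were higher and 0 lower, with Irf1 at 3.36 and 14.6 CPM and Ifitm3 at 32.8 and 92.5 CPM.

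The macrophage list was the one with the largest share of higher members. Of 30 genes 25 were measured, 24 were higher past 1.5-fold and none was lower (0 genes). The median log2 ratio was 2.34. The summed level of the 13 macrophage markers was 102 CPM at day 8 and 612 CPM at day 10 over all cells. Outside macrophage-like cells it was 11.4 and 11.5 CPM, so the difference lay within them. Inside them it was 4023 CPM at day 8 and 8463 CPM at day 10. Both the share of macrophage-like cells and the marker level per UMI in them were therefore higher at day 10, though the cells were clustered on these genes.

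Macrophage-like cells of the ages also differed in which macrophage genes they held. Of 6456 genes with a class mean of at least 20 CPM and at least 50 UMIs, 485 (7.51%) were at least 2-fold higher and 480 (7.43%) at least 2-fold lower, over 52 and 192 cells. Apoe, for the lipid carrier apolipoprotein E, stood at 92.1 CPM at day 8 and 2291 CPM at day 10, and its neighbour Apoc1 at 2.08 and 94.2 CPM. Mrc1 stood at 272 and 1037 CPM and C1qa at 22.4 and 327 CPM. Csf1r, the receptor for macrophage growth factor, differed less, at 145 and 341 CPM. After thinning, Mrc1 was seen in 26.9% (15.6% to 41.0%) of macrophage-like cells at day 8 and in 70.2% (62.7% to 77.0%) at day 10 (42.3% and 76.0% unthinned), against 0.0819% and 0.2196% of mesenchymal-like cells. C1qa was seen in 15.4% (6.88% to 28.1%) and 61.9% (54.1% to 69.3%), against 0 of 2442 and 0.0878%.

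Fxyd2, a sodium pump subunit gene, had 0 UMIs in macrophage-like cells at day 8 and 83.8 CPM at day 10, at least 53.7-fold higher against a floor of 3 UMIs in the day 8 cells. Bmp2 had 1 UMI in the 52 cells at day 8 and 264 in 57 of the 192 cells at day 10 (0.520 and 59.3 CPM), with 39.8% of the latter in 5 cells. The proton pump gene Atp6v0d2 had 1 UMI at day 8 and 182 in 19 cells at day 10 (0.520 and 40.9 CPM), with 69.8% of the latter in 5 cells. Spp1 stood at 22.9 and 793 CPM, with 63.7% of its day 10 UMIs in 1 cell. Genes lower in day 10 macrophage-like cells were Ccnd2, cyclin D2, at 600 and 98.0 CPM, Chn2 at 202 and 28.8 CPM, Ptp4a3 at 171 and 33.7 CPM, Flt1 at 86.9 and 14.2 CPM, Sntb1 at 64.0 and 10.3 CPM and Bcl11a, a transcription factor of blood progenitors, at 40.6 and 4.27 CPM. Ccnd2 was held by 50 of 52 cells at day 8 and 84 of 192 at day 10. The median depth of these cells was 37777 UMIs at day 8 and 20400 at day 10, and its part in these differences was not tested.

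Globin messages were lower at day 10 in all cells, and the adult forms made up more of what was left. Embryonic globins are made by primitive erythroid cells and adult globins by definitive ones and by maturing primitive cells. All 3 measured embryonic globins were lower: Hbb-y stood at 1955 CPM at day 8 and 230 CPM at day 10, Hba-x at 1588 and 128 CPM, and Hbb-bh1 at 260 and 18.2 CPM. All 4 adult globins were lower too, with Hba-a1 at 402 and 101 CPM, Hba-a2 at 105 and 30.7 CPM, Hbb-bs at 211 and 52.7 CPM and Hbb-bt at 15.3 and 0.495 CPM. Hba-a1 and Hba-a2, and Hbb-bs and Hbb-bt, are near-identical pairs, so UMIs may be split between them. Of all globin UMIs 97.3% at day 8 and 97.7% at day 10 lay in the erythroid-like cluster. Outside it the globin level was 127 CPM at day 8 and 13.1 CPM at day 10, and Hba-x was seen in 9.99% and 0.439% of thinned mesenchymal-like cells (38.8% and 1.76% unthinned) and in 5.77% of 52 and 0 of 168 macrophage-like cells. Neither class makes globin, so these UMIs are read as background and not as expression, and the globin ratios of mesenchymal-like cells are given no meaning.

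Within erythroid-like cells, adult globins made up 16.2% of globin UMIs at day 8 and 33.1% at day 10. Per cell with at least 50 globin UMIs, the share had a median of 13.3% (3.15% to 97.5%) over 117 cells at day 8 and of 34.3% (10.9% to 84.3%) over 12 cells at day 10, so the ranges overlapped. In the finer clustering, without the megakaryocyte-like cells, the medians were 12.4% (0.905% to 38.4%) over 106 cells and 34.1% (10.9% to 56.0%) over 11 cells. Per erythroid-like cell, the mean number of embryonic globin UMIs was 2198 at day 8 and 1044 at day 10, and that of adult globin UMIs 424 and 517, at a lower depth at day 10. Hba-a1 stood at 12389 and 29524 CPM in the erythroid-like cluster and Hbb-bh1 at 7970 and 4993 CPM. Other genes of this cluster are given with reserve, since 22 cells and 209489 UMIs stood for day 10, and of 4595 genes there 1319 (28.7%) stood 2-fold or more below day 8 and 264 (5.75%) above it. The lowest ratios were those of the mitotic genes Top2a, Hmmr, Cenpf and Cenpa and of Ube2v2 and Smarca4, all with 0 UMIs at day 10. Against a floor of 3 UMIs, Top2a was at least 12.7-fold lower, from 182 CPM in 53 of 143 cells. The highest, Vcan, H19, Ctnnal1, Npas2, Ebf1 and Lpin2, rested on few cells, with Vcan UMIs in 1 cell at day 10, and Npas2 and Ebf1 had the opposite sign in the finer clustering. Over all cells 8 of 21 heme and iron genes were lower, with Alas2, the erythroid enzyme of heme synthesis, at 22.1 and 3.90 CPM, and 4 of 7 measured megakaryocyte genes.

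Most measured endodermal genes were lower at day 10. Of 12 measured yolk sac endoderm genes 8 were lower and 0 higher, with a median of -1.99, and of 12 gut endoderm and epithelial genes 9 were lower and 2 higher, with a median of -1.59. The higher genes were Krt7 (9.58 and 31.7 CPM) and Spint2 (34.3 and 86.1 CPM), which stood at 6.32 and 32.3 CPM and at 19.7 and 89.4 CPM in mesenchymal-like cells. Apoc2 stood at 18.2 and 1.84 CPM, Ghrl, for the hormone ghrelin, at 25.3 and 2.40 CPM, the tight junction genes Cldn6 and Cldn7 at 26.4 and 4.95 CPM and at 35.5 and 8.29 CPM, and the keratin gene Krt8 at 679 and 179 CPM. Krt8 was not limited to the endoderm, at 684 and 176 CPM in mesenchymal-like cells. Afp, alpha-fetoprotein, did not follow, at 40.3 and 38.1 CPM. Inside endoderm-like cells Afp stood at 497 and 1704 CPM, while Ttr stood at 3027 and 980 CPM and Spink1 at 2913 and 936 CPM. The yolk sac endoderm markers summed to 7956 CPM at day 8 and 4457 CPM at day 10 within the class, whose make-up differed, with 132 yolk sac type cells at day 8 and 6 at day 10.

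Of 6907 genes in endoderm-like cells 188 (2.72%) were at least 2-fold higher and 167 (2.42%) at least 2-fold lower. The lowest were Car3 (63.8 and 1.45 CPM), Reln (174 and 24.6 CPM), Ctnna2, Kcnk16, Ifitm3 and Nepn (652 and 118 CPM). The highest were Tpbpa, Kirrel3 (10.7 and 261 CPM), Sct, Gadd45b, Onecut2 (12.3 and 114 CPM) and Ano3. For several of the highest, 1 cell per gene held most of the UMIs at day 10. Its share was 100% for Tpbpa, 97.9% for Sct, the secretin gene, and 88.7% for Gadd45b. Whether it was the same cell for these genes was not examined. Kirrel3 was spread over 21 of 65 cells and Onecut2 over 26.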

How the data were processed

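Gene by cell tables of UMI counts were deposited by the authors, 1 per library. They come from single cell 3′ libraries of dissociated embryoid bodies (v3.1 chemistry, per the labels' protocols), made with Cell Ranger 7.1.0 on mm10, per the submitters' processing notes. No source used here says whether introns were counted, which bears on nuclear RNA. The counts were used raw, and 32235 of 32285 gene IDs matched GENCODE M21.

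Cells were clustered with scanpy 1.11.5 (2000 variable genes, 30 principal components, 15 neighbours, leidenalg 0.10.2 at resolution 1) and named from 19 marker lists. Scrublet called 6 and 11 cells (0.189% and 0.411%), too few for the loading, so the caller did not work and no doublet was removed in the values given. Counts were summed per library and scaled to CPM, with 1 CPM added before log2. TMM factors from edgeR 4.0.16 served 1 alternative.

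The ratio code was tested on simulated data for this comparison, over 6937 genes: of genes changed 4-fold, 69 of 69 were called 2-fold different, of those changed 2-fold 16 of 63, and of 6737 unchanged genes 0. The simulated libraries differed by counting noise and the set changes only. The test therefore checks the code and gives no rate of false calls for the 2 real libraries.

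Named genes are the 15 highest and 15 lowest log2 ratios over all cells, up to 5 members per list with the largest ratios, the 6 highest and 6 lowest per class, and a fixed set of markers. Hmgcs1, Sqle, Pmvk, Egr1, Col4a1, Hes1, Id3, Apoc1, Igf2bp2, Igf2bp3, Spink1 in the endoderm and other members beyond that rule were named after their values were seen. A few list members are not reported here by name. The members and the 51 gene lists were chosen with earlier results of these data known. Alternatives changed the cell filters, clustering, scaling, pseudocount, low-level filter and doublet removal.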

Additional observations from a re-analysis of the deposited data

How the results depend on the processing

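No paired analysis was possible because each age had 1 library, and for the same reason no replicate could be left out. Of 80 results that answer a comparison and their alternatives, 65 stayed within 1.5 times the main count or within the counting interval of the main share, and 15 moved. The count of genes at least 2-fold higher (199) was 95 at a mean of at least 50 CPM and 618 with no filter on low genes, and the count of lower genes (119) was 52, 541 and, with a pseudocount of 10 CPM, 68. The filters change which genes are tested. The percent of 2-fold genes that were higher (62.6%) was 73.7% with TMM scaling, 70.5% after centring and 53.3% with no filter. TMM scaling moved the median gene by 0.11, from -0.08 to 0.03. The ratio of class shares, day 10 over day 8, was 1.14 for mesenchymal-like cells and 1.02 and 1.05 at clustering resolutions 0.5 and 2. It was 0.182 for erythroid-like cells and 0.1002 with at least 3 markers after thinning, and 0.118 at resolution 2. For endothelial-like cells (10 and 1) the interval is wide: the ratio was 0.118, and 0.731 with at least 3 markers. It was 0.0477 for the cardiomyocyte cluster, 0.313 at resolution 0.5, 0.380 at resolution 2 and 0.145 with at least 3 markers. Genes 2-fold higher in erythroid-like cells (264) numbered 152 at resolution 2, where the log2 ratios of Ebf1 (-3.16) and Npas2 (-0.99) reversed. Resolution 2 within classes was chosen after seeing the data. Without the macrophage, erythroid, megakaryocyte and endoderm classes, the log2 ratios of Spp1 (-0.11), Mrc1 (-0.051), Csf1r (-0.042), Ccl4 (-0.16), Flt1 (0.61) and Slc25a37 (0.28) and the median of the megakaryocyte list (0.10) reversed, since the cells that held these genes were left out. The list medians for cardiac sarcomere (0.23 at a mean of at least 50 CPM), neural crest (-0.087) and skeletal myogenic genes (-0.034, both with no filter) also reversed. Where no reason is given, the cause was not tested. Depth limits the classes of few cells, above all the 22 erythroid-like cells of day 10.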
